A study of Mus musculus with 12 samples.

Results

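Binding of GZF1 was profiled in the series by ChIP-seq, the sequencing of DNA precipitated with an antibody from chromatin, in embryonic stem cells of the mouse. Described here are 2 of its 12 libraries, Cas9 wild type and Cas9 control, both precipitated with the anti-GZF1 antibody that recognises the endogenous protein. Both carry the line name Cas9-GFP, and neither carries the Gzf1 knockout or a Gzf1-Flag construct. The labels call one genotype wild type and the other control, and do not say what sets the control apart. Cells of both libraries were fixed in 1% formaldehyde, and their chromatin was digested with micrococcal nuclease. Each genotype is 1 library, so no test between genotypes was possible, and a difference between genotypes cannot be told apart from one between preparations.

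Other libraries of the series served as reference points. They were Cas9 Gzf1 knockout cells with the same antibody, Cas9 cells overexpressing Gzf1-Flag (clone 35) and RGM cells overexpressing it (clone 56), both with anti-FLAG, RGM wild type with anti-GZF1 (RGM is a 129xCAST line), and Cas9 wild type with an antibody to acetylated histone H3 (H3K27ac). A Cas9 input, chromatin sequenced without an antibody, completed the set. Reads had been counted in 1 kb bins of mm10. Density is the count of a bin divided by the library's mean over autosomal bins. The local value is log2 of the density over the median density of the 10 bins on each side, with 0.5 added to both. It sets a bin against its own surroundings, although the fixed 0.5 and the limits on background leave some dependence on the level of the chromosome. A local value of 1 or more was counted as a peak bin.

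GZF1, the GDNF-inducible zinc finger protein 1, carries an amino-terminal BTB domain, a module through which proteins pair, and a run of C2H2 zinc fingers that contact DNA. It is known as a transcriptional repressor, and its name comes from GDNF, the ligand that signals through the receptor RET in the developing kidney and nervous system. In ChIP-seq, a bound site appears as a narrow rise over its neighbours. Reads outside such sites follow the amount of each chromosome in the cells, the openness of the chromatin and how readily a sequence can be assigned to 1 place in the genome.

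The wild-type library held 60.6 M reads, the control 94.2 M, and the other 6 held 10.1 to 85.9 M. A mean autosomal bin held 23.6 reads in the wild type and 35.8 in the control. Density was more even in the control, where 85.9% of autosomal bins lay between 0.5 and 1.5 times the mean, against 64.9% in the wild type and 85.1% in the knockout. Intervals below are 95% exact Poisson intervals for a density and 95% exact binomial (Clopper-Pearson) intervals for a ratio. Only the error of counting is in them, since reads from 1 amplified molecule can be counted more than once. The local background, a median of 20 bins, is taken as known in them.

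The 5 start regions below are shown for 4 starts at which the wild type stood above the control and for the start nearest to the IG-DMR site. They are the 250 bases upstream of a start, taken from RefSeq on GRCm38.p6 and printed 5′ to 3′ with CG pairs in capitals, since cytosine methylation in mammals falls mainly on such pairs. Vat1l at chr8:114205390-114205639 and Slc10a7 at chr8:78509078-78509327, both on the plus strand, were sites of tagged GZF1. Rnf217 at chr10:31609726-31609975 (minus strand) and Slc4a4 at chr5:88887010-88887259 (plus strand) were not, but were among the 15 regions of the genome that rose most over the control. Gm34081 at chr12:109526270-109526519 (minus strand) is a gene model within the IG-DMR, and its window ends 0.482 kb before the site bin there. Its own bin, next to that one, was itself a site of tagged GZF1. There the wild type held 31 reads and the control 54.6, and the ratio over local background was 1.505 (0.93 to 2.36), an interval that spans 1.
Vat1l: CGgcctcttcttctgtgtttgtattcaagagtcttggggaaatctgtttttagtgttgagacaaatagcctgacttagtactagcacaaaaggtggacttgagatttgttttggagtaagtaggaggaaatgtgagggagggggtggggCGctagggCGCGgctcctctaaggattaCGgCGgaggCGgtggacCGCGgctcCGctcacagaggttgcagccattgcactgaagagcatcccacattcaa
Slc10a7: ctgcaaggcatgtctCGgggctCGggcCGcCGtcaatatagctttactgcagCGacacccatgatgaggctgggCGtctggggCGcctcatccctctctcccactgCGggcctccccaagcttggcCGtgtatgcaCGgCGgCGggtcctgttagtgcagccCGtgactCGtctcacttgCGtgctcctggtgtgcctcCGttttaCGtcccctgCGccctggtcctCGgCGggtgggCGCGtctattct
Rnf217: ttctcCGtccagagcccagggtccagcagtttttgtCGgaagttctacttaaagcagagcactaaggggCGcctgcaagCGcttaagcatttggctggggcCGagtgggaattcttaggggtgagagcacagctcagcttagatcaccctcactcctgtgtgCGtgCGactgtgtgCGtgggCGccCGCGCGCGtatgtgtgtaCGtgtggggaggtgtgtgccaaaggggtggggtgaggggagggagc
Slc4a4: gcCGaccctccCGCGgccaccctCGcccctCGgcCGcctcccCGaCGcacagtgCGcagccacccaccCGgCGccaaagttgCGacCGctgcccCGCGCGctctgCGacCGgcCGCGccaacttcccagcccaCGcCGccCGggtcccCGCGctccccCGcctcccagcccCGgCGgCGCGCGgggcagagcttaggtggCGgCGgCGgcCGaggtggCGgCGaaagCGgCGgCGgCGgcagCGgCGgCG
Gm34081: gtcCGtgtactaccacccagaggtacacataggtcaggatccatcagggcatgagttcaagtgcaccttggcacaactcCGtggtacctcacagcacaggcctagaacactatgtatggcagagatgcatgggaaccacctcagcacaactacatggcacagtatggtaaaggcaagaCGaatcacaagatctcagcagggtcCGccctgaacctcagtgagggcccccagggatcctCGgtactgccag
They hold 10, 22, 14, 44 and 5 CG pairs in that order, at a G+C content of 51.6%, 65.2%, 60.0%, 82.0% and 54.8%.

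Set against their local background, sites of tagged GZF1 stood out in the wild-type library and hardly at all in the control. Such sites were defined without either library, as autosomal bins with a local value of 1.5 or more in both anti-FLAG libraries. There were 351. Their median local value was 1.40 in the wild type and 0.32 in the control, and the median difference was 0.94. The wild type had a peak in 252 of the 351, where 0.258% of all bins tested had one, and the control in 47, where 0.0248% did. Relative to local background, the interval of the ratio of wild type to control lay wholly above 1 in 277 of the 351, against 7.85% of tested bins, and wholly below 1 in 25, against 9.51%. The knockout had 48 peaks, a share of bins of 0.0304% over the genome.

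Not all 351 bins were single-copy sequence with reads around it. In 117 the input itself was above 3 times its mean, among them bins of chromosomes 2, 9 and 15 with no gene within 5 kb and the bin beside Rn18s-rs5, a ribosomal RNA sequence of chromosome 17. The first of these by anti-FLAG, at chr2:98666001-98667000, held 606 reads in the wild type and 1409 in the control, at densities of 25.7 and 39.4. The input reached 80.8 times its mean in the same bin. Of the 47 control peaks, 42 lay in these high-input bins. A further 68 bins had a local background under 0.5 in the wild type or the control, with a median background of 0.13 in the wild type and 0.91 in the control. Median densities in the site bins were alike there, at 1.40 and 1.33, yet 60 of the 68 were wild-type peaks and 65 had an interval above 1. Over all 351 bins the input itself had a local value of 1 or more in 172. Without local background, the summed reads of the 351 gave a density ratio of wild type to control of 0.984 (0.971 to 0.997).

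The remaining 166 bins, in 122 regions, met limits that were added after the data were seen: they had a local background of at least 0.5 in both libraries and an input of at most 3 times its mean. Here the wild type had a median density of 3.20 over a background of 1.27, and the control 1.39 over 1.10. The median local value was 1.00 in the wild type, 0.20 in the control and 0.14 in the knockout. RGM wild type with the same antibody had 1.13, and the Cas9 anti-FLAG library that helped to choose the sites had 2.21. The wild type had a peak in 83 of the 166, the control in 1 and the knockout in 0. Wild type was above control in 154 of 166 bins, where 49.1% of all tested bins were. The interval of the ratio lay wholly above 1 in 130 of the 166 bins and wholly below 1 in 0. That 0 rests on counting intervals alone, and 12 bins had a lower local value in the wild type.

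**Figure D1:**
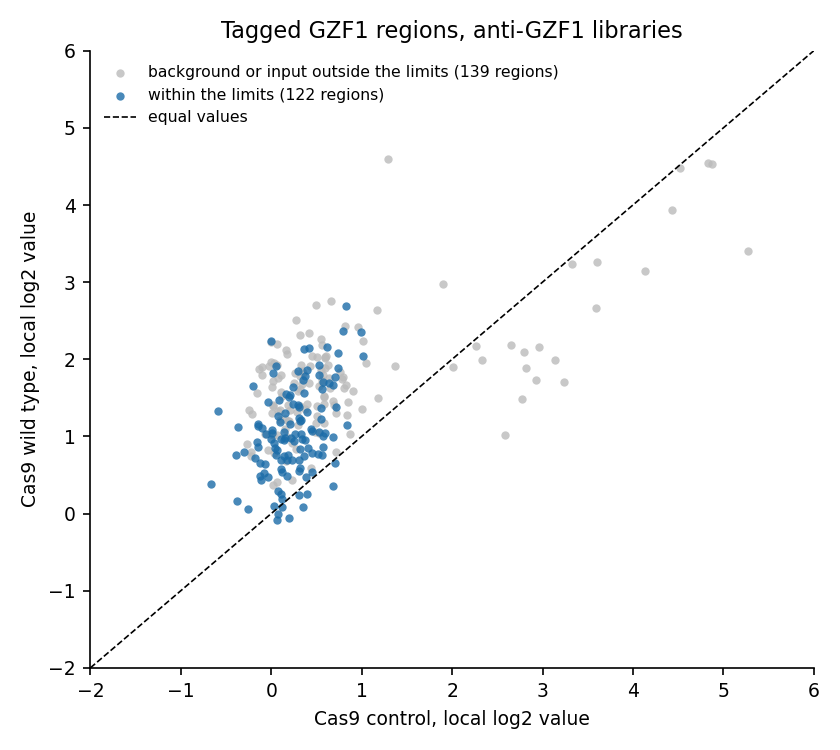
Local log2 value of each of the 261 tagged GZF1 regions in the control (horizontal) and the wild type (vertical), each point 1 region at its bin of highest anti-FLAG signal. Within the limits (blue), 113 of 122 regions lie above the dashed line of equal values, and the points with a control value above 2 are outside the limits (grey).

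The difference was larger at the stronger sites of tagged GZF1. Where the lower anti-FLAG value lay between 1.5 and 2, the median difference of wild type and control was 0.62 over 96 bins. It was 0.85 over 44 bins between 2 and 2.5, and 1.38 over 26 bins above 2.5. Peaks of the wild type rose with it, from 31 of 96 to 27 of 44 and 25 of 26. The control had 0, 0 and 1. Median local values rose in both, from 0.80 to 1.16 and 1.80 in the wild type and from 0.11 to 0.25 and 0.36 in the control. Those of H3K27ac were 0.26, 0.28 and 0.44. Across the 166 bins, Pearson's r with the Cas9 anti-FLAG local value was 0.59 for the wild type and 0.11 for the control. With H3K27ac it was 0.53 for the wild type and 0.42 for the control. These values are a description over bins that share libraries, and bins are not independent replicates.

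Averaged over the 166 bins, the wild type had 2.67 times the mean local background in the site bin, 1.79 and 1.88 in its immediate neighbours and 1.19 and 1.22 at 2 kb. The control had 1.28 in the site bin and 1.08 and 1.17 beside it. The knockout had 1.18 in the site bin. H3K27ac and input rose at the same bins as well, to 1.51 and 1.21. Because acetylated chromatin also gave reads there, the bins were restricted to the 83 with local values below 0.5 in both H3K27ac and input, a restriction chosen after the data were seen. In these the median local value was 0.83 in the wild type, 0.11 in the control and −0.02 in the knockout, with peaks in 30, 0 and 0 bins.

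**Figure D2:**
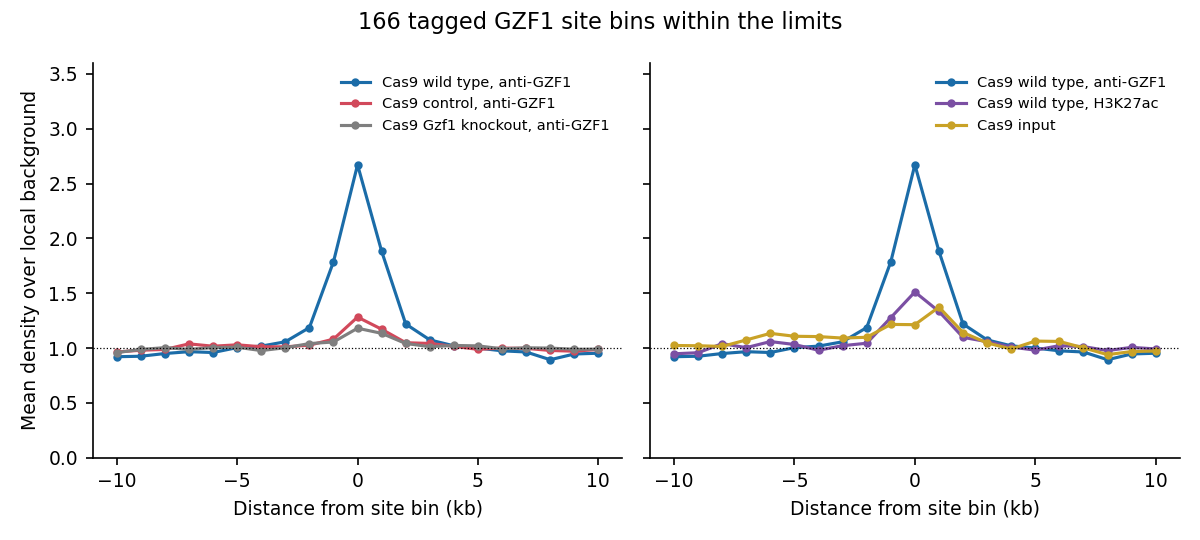
Mean density over mean local background by distance in kb from the 166 tagged GZF1 site bins within the limits, 1 line per library, for wild type, control and knockout with anti-GZF1 (left) and for wild type with anti-GZF1, H3K27ac and input (right). The wild-type line reaches 2.67 at the site, while the control and knockout lines reach 1.28 and 1.18.

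Bins chosen for H3K27ac and for a low anti-FLAG value differed less. Within the same limits, 2054 bins had an H3K27ac local value of 1 or more and both anti-FLAG values below 0.5. Their median local value was 0.20 in the wild type and 0.07 in the control. The wild type had a peak in 11 of them and the control in 3. The median difference was 0.12, against 0.81 over the 166 tagged sites, and this contrast of bin sets has no replicate. The sets were not matched: 116 of the 2054 bins held or adjoined a gene start, against 39 of the 166. Since low anti-FLAG values were part of the choice, the contrast cannot show how acetylated bins in general differ.

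Of the 122 regions within the limits, 22 held a gene start in the site bin, 62 overlapped a gene elsewhere, 12 had a gene within 5 kb and 26 had none. The region with the strongest anti-FLAG signal within the limits was the start of Vat1l, which encodes a relative of the synaptic vesicle membrane protein Vat1, at chr8:114205001-114206000. It held 209 reads in the wild type and 70.3 in the control, densities of 8.85 and 1.96, while the knockout had 1.59. Over local background the wild type was 4.26 times the control (interval 3.25 to 5.69). The wild type was high, and control and knockout were both within 2 times the mean.

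Gnal, the gene of the stimulatory G protein subunit of olfactory neurons, had the largest difference of all. Its bin at chr18:67088001-67089000 lay within the gene and held 155 reads in the wild type and 37.0 in the control. Densities were 6.56 and 1.03, the knockout had 1.30, and the ratio over local background was 6.63 (4.61 to 9.77). Adra1a, an adrenergic receptor gene, had 160 reads against 53.0 in a bin within the gene (3.94, 2.86 to 5.47). Pdzrn3, which encodes a RING-type ubiquitin ligase with PDZ domains, had 199 against 83.8 in a bin within 5 kb of it (3.32, 2.55 to 4.32). In each of these the control lay at 1.03 to 2.34 times the mean, so that it was near the genome's average or slightly above it, not empty.

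Further regions among the 10 with the highest difference were Tsga10ip, with 121 reads against 18.9, Ets1, an ETS transcription factor gene with 86 reads against 24, and Ptk2b, a focal adhesion kinase gene with 158 against 39.0. Gm33257 had 173 against 52.0, Slc10a7, a solute carrier gene, had 209 against 80.7, and a bin of chromosome 13 with no gene within 5 kb had 91.5 against 32.5. Their ratios over local background ran from 3.21 to 5.88. Every one of the 10 had an interval above 2, though they were chosen by their difference of wild type and control. The highest control density among them was that of Pdzrn3.

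The control was raised at a few sites. Its only peak within the limits was the start of Cald1, the gene of the actin-binding protein caldesmon, on chromosome 6, with 123 reads and a density of 3.43 in the control, 8.19 in the wild type and 0.77 in the knockout. Over local background the wild type was 2.15 times the control there (1.70 to 2.70). The start of Dnajb12, a chaperone of the endoplasmic reticulum, came next with 92.3 control reads, a local value of 0.99 against 2.35 in the wild type, and a knockout density of 2.15 against 2.58 in the control. Cald1 and Dnajb12 were singled out after their values were seen.

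At the other end, 9 of the 122 regions had a lower local value in the wild type. Slc18b1, a vesicular polyamine transporter gene, had the lowest difference at −0.34, with 42.7 reads in the wild type and 69.6 in the control (0.72 over local background, 0.48 to 1.07). Baz2b, Pik3c3, Sav1 and Agap1 followed at −0.27 to −0.14. Rpap1, Rnf149, Mideas and a bin of chromosome 4 had −0.09 to −0.03, and Gm31690, the tenth from the bottom, had 0.07. The intervals of all 10 spanned 1. In both libraries these bins lay between 1.02 and 2.35 times the mean.

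Gene starts were part of several sites, with 35 RefSeq promoter windows of 31 genes in the 166 bins. Among them were Idh1 and Pikfyve, Cd47, Bmp6, Gapdh, Kif22, Chek1, and Zrsr1 with Commd1, a pair of genes at an imprinted locus. Gapdh, which encodes the glycolytic enzyme glyceraldehyde-3-phosphate dehydrogenase, had a local value of 1.69 in the wild type and 0.64 in the control. Bmp6, a bone morphogenetic protein gene, had 1.19 and 0.10, and Cd47, the gene of a surface protein that inhibits engulfment, 1.70 and 0.57. At Zrsr1 and Commd1 the values were 1.01 and 0.57. A search on both strands for TGCGC, the opening of the sequence that GZF1 is known to bind in vitro, found it in 18 of the 35 windows (51.4%) and in 30.6% of 31396 autosomal windows of 300 bases. The longer form, in which TATA follows after 3 unspecified bases, was in 0 of the 35 and in 4 of the 31396. The median G+C content of the 35 was 57.3%, against 53.0% for all, and a match describes letters and not a binding site. The 35 windows lie in 27 bins and some of them overlap, so a match can be counted more than once.

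Dlk1-Dio3, the imprinted cluster of chromosome 12 in the title of the series, came next. On the paternal chromosome it gives Dlk1, a Notch-pathway membrane protein, Rtl1, a retrotransposon-derived placental protein, and Dio3, which inactivates thyroid hormone. On the maternal chromosome it gives the non-coding RNAs Meg3, Rian and Mirg. The IG-DMR, a region between Dlk1 and Meg3 that is methylated on the paternal copy, directs this choice. Its bin of highest anti-FLAG signal was chr12:109527001-109528000, with a density of 13.5 in the Cas9 tagged clone.

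In that bin the wild type held 55.0 reads and the control 59.4. The densities were 2.33 (interval 1.76 to 3.04) and 1.66 (1.26 to 2.13), and the ratio was 1.40 (0.96 to 2.08). The surroundings differed more than the bin. The 20 flanking bins had a median of 0.76 in the wild type and 1.38 in the control, and all 20 lay below the site bin in the wild type, while 5 of 20 lay above it in the control. Local values were therefore 1.16 and 0.20, and the ratio over local background was 2.53 (1.73 to 3.75). The knockout held 5 reads, a density of 0.15 that was below all 20 of its flanking bins.

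**Figure D3:**
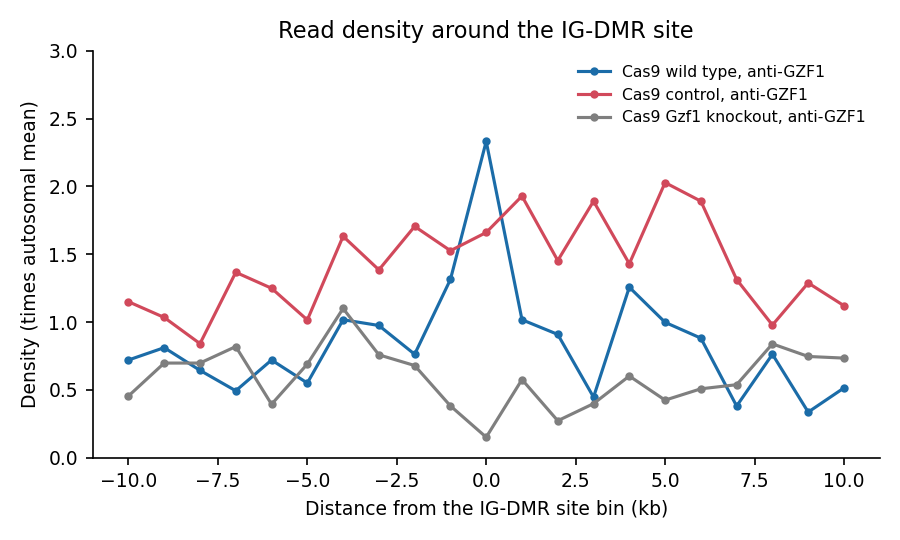
Density in 1 kb bins by distance in kb from the IG-DMR site bin, 1 line each for wild type, control and knockout with anti-GZF1, each bin 1 library's value. The wild type rises to 2.33 in the site bin over a flanking median of 0.76, the control stays between 0.84 and 2.03 throughout, and the knockout falls to 0.15.

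Over the 7 bins centred on the site, the wild type had 183 reads and the control 413, a density ratio of 0.67 (0.56 to 0.80). Chromosome 12 as a whole was at 0.70 of the control in the wild type, and the window's ratio divided by that of the chromosome was 0.95 (0.80 to 1.14). Across the domain from Dlk1 to Dio3 the ratio of densities was 0.81 (0.80 to 0.83). The Meg3 promoter had 73.0 and 145 reads (0.76, 0.57 to 1.02), and the bodies of Meg3, Rian and Mirg had ratios of 0.76, 0.65 and 0.77. Rtl1 had 0.80, Dlk1 1.14 (0.998 to 1.30) and Dio3 1.66 (1.34 to 2.06). Local differences were 0.54 for Dio3, 0.20 for Meg3, 0.17 for its promoter and 0.09 for Rian, and within 0.03 of 0 for Dlk1, Rtl1 and Mirg.

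Genome-wide, 2155390 autosomal bins (87.5%) could be compared at a local background of 0.5 or more in both libraries. The wild type had 5570 peak bins and the control 535, and at a threshold of 2 the order turned, with 21 and 39. They shared 130, which was 2.33% of the wild-type bins and 24.3% of the control bins. Of the wild-type peak bins 60.4% held a gene start or lay next to a bin that did, and of the control's 35.0%, while 3.01% of tested bins did. Both anti-FLAG libraries had a local value of 1 or more in 16.9% of the wild-type peak bins and 11.4% of the control's. Of all 2462755 autosomal bins, 3551 had this. H3K27ac had a local value of 1 or more in 40.5% of the wild-type peak bins, against 0.316% of tested bins. At the wild-type peak bins RGM wild type had a median local value of 1.53 and H3K27ac of 0.90. At the control's, the knockout had 1.06 and the wild type 0.50.

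A local difference of 1 or more in favour of the wild type was found in 8076 bins (0.375%), and one of −1 or less in 37741 (1.75%). Between control and knockout the same limits were passed by 0.0886% and 0.0801% of bins. The bins were chosen by the difference of wild type and control, so their values in these libraries follow in part from the choice. In the bins higher in the wild type, median densities were 1.63 in the wild type, 0.60 in the control and 0.98 in the knockout. Median local values there were 0.68, −0.43 and 0.01. Of the 8076, 1674 (20.7%) were wild-type peak bins, against 0.258% of tested bins. In the bins lower in the wild type, median densities were 0.08, 0.99 and 0.91. Of the latter, 41.9% had no wild-type read at all. The remaining libraries resembled the wild type there, with medians of 0.11 for Cas9 anti-FLAG, 0.13 for H3K27ac, 0.06 for RGM anti-FLAG and 0.00 for RGM wild type and input.

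The 15 regions with the largest rise over the control included 4 tagged sites, Gnal, Tsga10ip, Vat1l and the chromosome 13 bin. The other 11 lacked a tagged site but were not silent in other wild-type libraries. Rnf217, a ubiquitin ligase gene, had 96.9 reads at its start in the wild type and 21.6 in the control, densities of 4.11 and 0.60. Slc4a4, a sodium bicarbonate transporter gene, had 131 and 34.0 (5.56 and 0.95). RGM wild type had 5.43 and 6.72 at these starts. A bin overlapping the annotated gene of Tbx1, a T-box transcription factor, had 93.3 and 12.6 reads, and Pex5l, Wnk2 and Tpbgl had rises within the gene.

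Starts of Fam171a1, Gpam and Rbm46 were also among the 15. At Gpam, which encodes the mitochondrial enzyme of the first step of glycerolipid synthesis, the wild type had 169 reads and the control 44.9. Rbm46, a germ-cell RNA-binding protein gene, had 78.3 and 34.0. Over all 15 the median density was 4.14 in the wild type, 0.91 in the control and 1.09 in the knockout, and 5.43 in RGM wild type. The control ranged from 0.31 to 1.96 and the lowest wild-type value was 3.20. Because the regions were ranked by the difference of these libraries, this gap follows from the choice. The knockout, which was not part of the ranking, ranged from 0.19 to 2.19.

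The 15 regions with the largest fall had a different make-up. First came a bin of chromosome 1 that overlaps Gm10925, chr1:24613001-24614000, with 0 reads in the wild type and 643 in the control, densities of 0 and 18.0, and 18.9 in the knockout. Next were 2700054A10Rik with 4 and 430 reads, Gm40237 with 15.8 and 445, Myo3a with 9 and 418 and a bin overlapping the annotated gene of Smo with 9.50 and 296. Mdga2 had the most control reads, 840 against 24.95. In 13 of the 15 the wild type lay below its mean, and 5 had no wild-type read. The median was 0.04 in the wild type, 8.27 in the control and 8.89 in the knockout, and between 0.03 and 0.25 in the other 5 libraries. Wild-type and control values follow in part from the ranking by their difference.

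Empty bins separated the libraries in the same way. Of 2462755 autosomal bins, 128716 (5.23%) held no read in the wild type and 66696 (2.71%) none in the control, with 2.71% in the knockout. They overlapped in 66691. Only 5 bins were empty in the control alone, and 62025 (2.52%) were empty in the wild type alone. In those the control had a median density of 0.75 and the knockout 0.79, and 49159 of them held 20 or more control reads. In total they carried 1.81 M control reads, 2.06% of its autosomal reads. Of these bins 93.8% were also empty in the input, 82.6% in H3K27ac, 74.1% in Cas9 anti-FLAG, 83.6% in RGM anti-FLAG and 92.0% in RGM wild type, and 0.01% in the knockout. Of all autosomal bins 17.2%, 5.79%, 5.02%, 6.11%, 8.97% and 2.71% were empty in these libraries, in the same order. Input and RGM wild type were also the shallowest libraries, at a mean of 3.93 and 8.61 reads per autosomal bin. For a bin with 0 reads the interval of the wild-type density reached up to 0.16, where a mean bin held 23.6 reads.

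The bins formed 22323 runs, of which 11049 were single bins. Run number fell to 1575 at 4 kb, was 1760 at 5 kb and 1010 at 6 kb, and fell to 234 at 7 kb. The longest run, chr14:69255001-69595000, was 340 kb long and held 8210 control reads and 7295 knockout reads, at densities of 0.68 and 0.65. It spans Slc25a37, which encodes the mitochondrial iron importer mitoferrin, Synb, an envelope-derived syncytin gene, and Entpd4, which encodes a nucleotide-hydrolysing enzyme, with its copy Entpd4b. By chromosome, bins empty in the wild type alone made up 1.16% of chromosome 11 and 5.78% of chromosome 7, and 9.56% of the X chromosome.

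Whole genes were affected, several of them members of multicopy families. In 481 of 21627 coding genes outside the Y chromosome (2.22%), at least 50% of the bins were empty in the wild type alone. Of them 118 were on the X chromosome, 100 on chromosome 7 and 61 on chromosome 14. The pheromone receptors of the Vmn1r family had 58 of 231 such genes (25.1%), and those of the Vmn2r family 12 of 124 (9.68%). Odorant receptor genes, named Olfr, had 6 of 1110 (0.54%). Of the defensin genes of the intestine (Defa) 12 of 29 were concerned, of the major urinary proteins (Mup) 5 of 22, of the Pramel family 10 of 47, of the pancreatic amylases (Amy2) 4 of 6, and of Zscan4, expressed in early embryos, 2 of 4. Rhox homeobox genes had 5 of 33 and gene models named Gm 234 of 1094, while zinc finger genes named Zfp had 10 of 397 (2.52%), near the share of all coding genes. These families were picked after the bins were seen, and reads of near-identical copies are uncertain in any library.

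Single genes show the size of the contrast. Entpd4 and Entpd4b, both 30 bins long, held 0 wild-type reads and 661 and 638 control reads. Srp54b, which encodes a signal recognition particle subunit, had 3 reads in the wild type and 2101 in the control, a control density of 1.68. Ccl21b, a chemokine gene, had 4 and 2334, and Loxl2, a lysyl oxidase gene, 204 and 2212. The knockout had 1897 reads in Loxl2 and 2019 in Ccl21b. The control lay between 0.59 and 1.68 times its mean in these 5 genes, and the wild type between 0 and 0.10.

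Bins of very high density differed as well. Bins above 5 times the mean numbered 2007 in the wild type and 488 in the control, with 116 in both. They held 0.51% and 0.24% of autosomal reads. In the wild type 70.9% of them held or adjoined a gene start, in the control 9.02%, and 3.18% of autosomal bins do. This was not particular to the wild type with anti-GZF1. H3K27ac had 2101 such bins, 74.0% of them at starts, and the input 2111, with 44.0%. Cas9 anti-FLAG had 589, with 27.7%. Above 10 times the mean the order turned, with 88 bins in the wild type and 176 in the control, and 0.06% and 0.16% of reads. Of the 88, 80 were also above 10 in the control, and 33 of the 176 control bins were below 1 in the wild type.

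Chromosome dosage was read as the median density of each chromosome's bins that held input reads. The ratio of wild type to control was over 5% above 1 on 6 of the 19 autosomes, over 5% below on 6 and between these on 7. It was highest on chromosome 17 at 1.30 (1.12 in the wild type, 0.87 in the control) and on chromosome 5 at 1.23 (1.33 and 1.08). Chromosome 11 had 1.14, chromosome 16 1.09, and chromosomes 19 and 9 had 1.06. It was lowest on chromosome 12 at 0.70 (0.81 and 1.15), chromosome 6 at 0.81 (1.04 and 1.29) and chromosome 3 at 0.82 (0.88 and 1.06). Chromosomes 18, 14 and 1 had 0.93, 0.93 and 0.94.

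**Figure D4:**
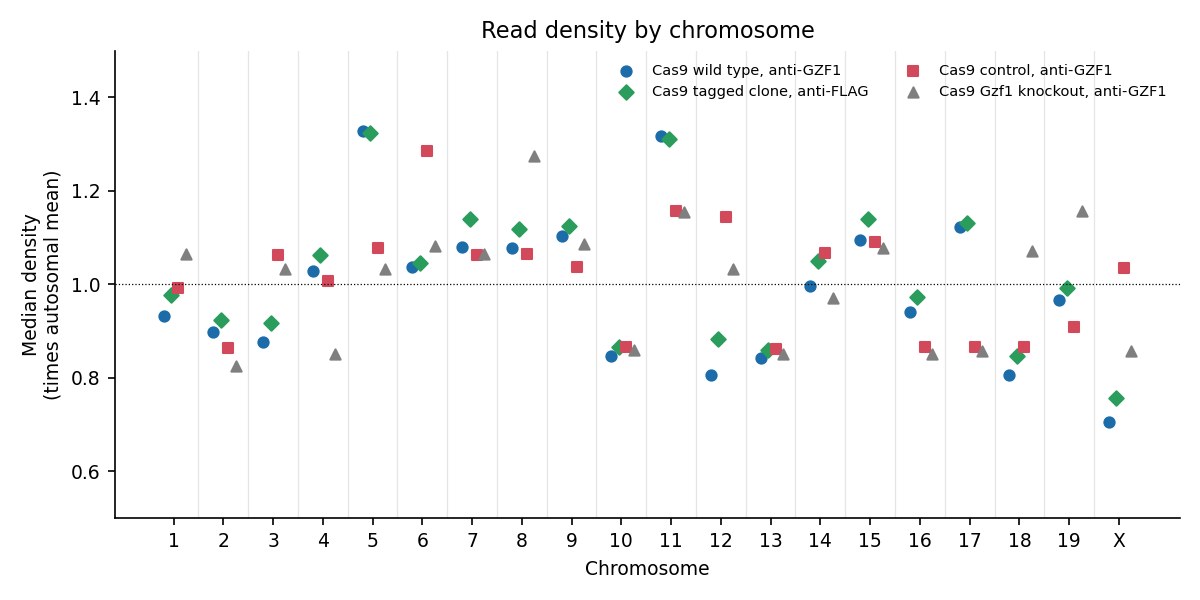
Median density of the bins with input reads on each autosome and the X chromosome, 1 point per library, for wild type and control with anti-GZF1, the Cas9 tagged clone with anti-FLAG and the knockout with anti-GZF1. The wild type lies at 0.91 to 1.00 times the tagged clone on the autosomes, while the control is highest on chromosome 6 at 1.29 and the knockout on chromosome 8 at 1.28.

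By chromosome the wild type lay closer to the Cas9 tagged clone than to the control. Its ratio to the clone ran from 0.91 to 1.00 over the autosomes, and 3 lay more than 5% from 1. Control over knockout ran from 0.79 to 1.19, with 8 outside. In the control chromosomes 2, 10, 13, 16, 17 and 18 lay at 0.86 or 0.87, whereas chromosome 6 reached 1.29, and chromosomes 11 and 12 reached 1.16 and 1.15. In the knockout chromosome 6 was at 1.08, chromosome 8 at 1.28 and chromosome 19 at 1.16, where the control had 1.07 and 0.91. Control and knockout thus also differed from each other in dosage.

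In 10 Mb windows the ratio of wild type to control ran from 0.59 to 1.74 around a median of 0.97. It was over 5% above 1 in 84 of 249 autosomal windows (33.7%) and over 5% below in 104 (41.8%). The highest was 90 to 100 Mb of chromosome 16, with 1.58 in the wild type and 0.91 in the control. It was followed by 160 to 170 Mb of chromosome 2 at 1.68, 20 to 30 Mb of chromosome 17 at 1.63, and 110 to 120 and 120 to 130 Mb of chromosome 5 at 1.61 and 1.58. The lowest were 60 to 70, 40 to 50 and 90 to 100 Mb of chromosome 12 at 0.59, 0.60 and 0.61. Over the 249 windows Pearson's r with the wild type was 0.99 for Cas9 anti-FLAG, 0.98 for H3K27ac, 0.94 for input and 0.53 for the control, and windows along a chromosome are not independent.

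Gene content moved with these ratios, and its part in them was not tested. Over the 19 autosomes the ratio had Pearson's r of 0.59 and Spearman's rho of 0.76 with the number of coding genes per Mb, given as a description. In 1 Mb windows with 0 coding genes the median density was 0.72 in the wild type and 0.90 in the control. In windows with 20 or more genes it was 1.48 and 1.12. The ratio rose from 0.80 to 1.28 between these classes. When all bins within 5 kb of a gene were left out, the ratio was over 5% above 1 on 2 autosomes and over 5% below on 15. Densities were still divided by the mean over all autosomal bins, and the ratio fell on every autosome. A value under 1 here is therefore not a loss relative to the other autosomes. Chromosomes 9, 11 and 19 were then at 0.95, 0.95 and 0.92. Chromosome 12 stayed lowest at 0.64, followed by chromosome 6 at 0.74 and chromosome 3 at 0.77, and chromosome 17 stayed highest at 1.12, followed by chromosome 5 at 1.07.

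The X chromosome had a median density of 0.71 in the wild type and 1.03 in the control, a ratio of 0.68, close to the 0.70 of chromosome 12, with 0.86 in the knockout. Without bins near genes the ratios were 0.65 and 0.64. On the Y chromosome the wild type had 1801 reads, a mean density of 0.001, and the control 167851, a mean of 0.05. Bins with no read made up 99.6% of the Y chromosome in the wild type and 73.1% in the control, and 72.3% in the knockout. Uty, which encodes a histone demethylase relative, had 21.0 reads in the wild type and 606 in the control, a control density of 0.11 (interval 0.10 to 0.11). Ddx3y, an RNA helicase gene, had 2 and 46, and Zfy1, a zinc finger gene, 6 and 567. The control densities of these genes stayed well below that of Hprt, an X-linked gene of purine salvage, at 1.45. Mitochondrial DNA had 5.11 times the autosomal mean in the wild type and 19.7 in the control.

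Gene starts carried more of the wild-type reads. Over 25748 autosomal genes with a RefSeq start, the mean density of the start bin was 2.34 in the wild type, 1.46 in the control and 1.45 in the knockout. At 10 kb upstream it was 1.32, 1.12 and 1.12. Starts were split into 5 classes by the G+C content of their promoter window. The lowest class, up to 44.0% G+C, had a mean of 1.01 in the wild type and 1.07 in the control, a ratio of 0.94 (0.94 to 0.95). The highest, from 64.3%, had 3.95 and 1.77, a ratio of 2.23 (2.22 to 2.24). The input rose from 0.99 to 2.97 and H3K27ac from 1.02 to 3.78 over the same classes, and the knockout stood at 1.75 in the highest.

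**Figure D5:**
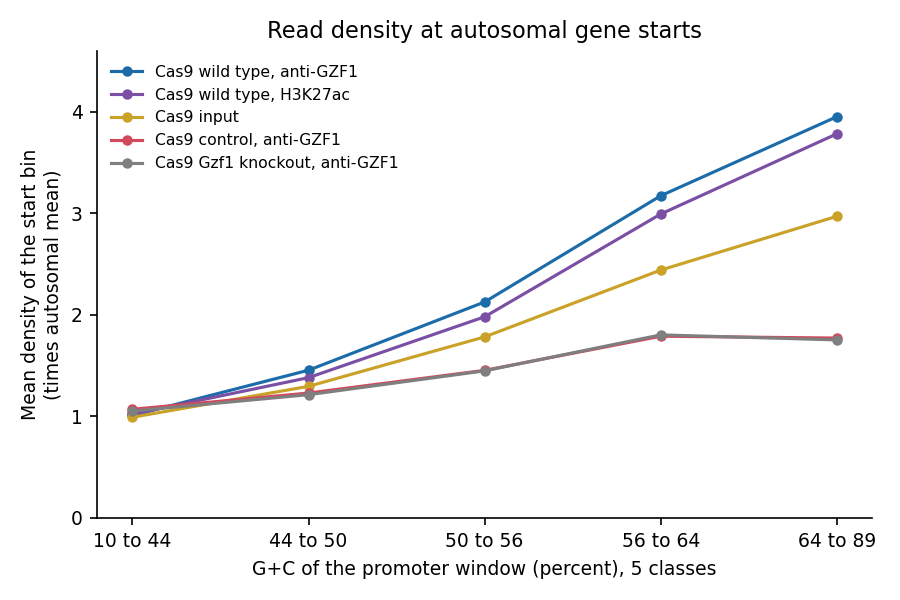
Mean density of the bin holding the gene start, in times the autosomal mean, for 5 classes of promoter G+C content, 1 line per library. The wild type climbs from 1.01 to 3.95 and H3K27ac and input climb with it, while control and knockout level off at 1.77 and 1.75.

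Named gene groups were read over the start bin and 1 bin on each side. The median difference of local values over 47039 autosomal genes was 0.12, and 66.6% were higher in the wild type. A difference of 0.5 or more was seen in 11.3% and one of −0.5 or less in 1.49%. Genes without a listed start were read at both ends. Over the 25748 genes read at a start, the closer match to the groups below, the median was 0.19, 73.0% were higher and 17.8% were at 0.5 or more. Order among the groups depends on the local background: without it every group below had a median above the 0.22 of all genes. The difference also rose with promoter G+C content, with medians of 0.14, 0.35 and 0.68 in the upper 3 of the 5 classes. Median G+C content was 61.2% in the DNA methylation group, 60.0% in the germline, 62.0% in the GDNF-RET and 63.0% in the pluripotency group. All genes had 53.0%, and the groups were not matched for it. Since the groups were chosen with results of these data known, their counts are a description.

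Genes of DNA methylation and imprint maintenance had a median difference of 0.43, with 15 of 17 higher in the wild type and 5 of 17 at 0.5 or more. Dnmt3a, a de novo methyltransferase gene, had densities of 2.83 and 1.34 and a difference of 1.00. Ctcf, which encodes an insulator protein, had 4.08 and 1.66 (0.77), Dnmt3b 3.57 and 1.33 (0.66), and Tet3, a 5-methylcytosine oxidase gene, 3.07 and 1.89 (0.55). Setdb1, a histone methyltransferase gene, was lowest at −0.14. Germline genes whose promoters are methylated in somatic cells had a median of 0.52, with 14 of 15 higher and 8 of 15 at 0.5 or more. Without local background they had 0.49, below the 0.67 of the DNA methylation group. Mael, a piRNA-pathway gene, had 0.74, and the synaptonemal complex genes Sycp1 and Sycp3 had 0.65 and 0.61.

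The GDNF-RET group, which holds the ligand that names GZF1, had a median of 0.29, with 17 of 19 higher and 4 of 19 at 0.5 or more. Gdnf itself had densities of 2.5 in the wild type and 1.11 in the control (0.79). Gfra1, its co-receptor gene, had 2.11 and 1.13 (0.54), and Spry2, a feedback inhibitor of receptor tyrosine kinases, 3.31 and 1.65 (0.53). Gzf1 had 2.64 and 1.10 at its start (0.51), and H3K27ac was 3.59 there. Nrtn, a related ligand gene, and Etv4, a target of RET, had −0.08 and −0.09.

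Imprinted genes had a median of 0.23, with 22 of 29 higher (75.9%) and 5 of 29 at 0.5 or more (17.2%), shares near those of all genes read at a start. Ndn, a paternally expressed gene, had 0.90, Grb10, a growth suppressor gene, 0.75, Dio3 0.74 and Cdkn1c, a maternally expressed cell-cycle inhibitor gene, 0.68. Rian was lowest at −0.37. Starts that lie in methylated imprint control regions had the same median of 0.23, with 8 of 11 higher and 0 of 11 at 0.5 or more, led by Plagl1 at 0.48 and Kcnq1ot1 at 0.42.

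Pluripotency, ribosomal protein and Hox genes lay below the median of all genes, but at 0.48, 0.58 and 0.53 without local background they lay above the 0.22 of all genes. With flanks of 20 bins ribosomal protein genes had 0.15, against 0.12. Pluripotency genes had 0.06, with 11 of 18 higher and 0 at 0.5 or more. Zfp42, an embryonic stem cell marker, had 0.46, Klf4 0.33 and Nanog −0.26, and Dppa5a, a marker of the same cells, had −0.72 with densities of 1.55 and 2.06. Ribosomal protein genes had 0.10, with 0 of 25 at 0.5 or more. Hox genes had 0.04, although 5 of 20 were at 0.5 or more, among them Hoxd1 at 0.85 and Hoxd13 at 0.63. Housekeeping genes had 0.17, with 9 of 14 higher, and Gapdh, at a tagged site, was highest at 0.84.

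ChIP-seq does not measure expression, and the labelled cell type could be looked for only in H3K27ac, which was made in the wild type. Marker genes of embryonic stem cells had a median H3K27ac local value of 0.46, against 0.33 for fibroblast feeder markers, 0.15 for primitive endoderm, 0.25 for trophoblast, 0.42 for neural cells, 0.37 for mesoderm and 0.16 for all genes. The input had medians of 0.42, 0.43, 0.29, 0.21, 0.17, 0.51 and 0.19 in the same order. It lay above H3K27ac for feeder, primitive endoderm and mesoderm markers and for all genes. These groups hold 4 to 10 genes and do not separate clearly, so the values do not show the cell type. In the difference of wild type and control, stem cell markers had 0.06, with 6 of 10 higher, and feeder markers 0.34, with 7 of 8 higher. Feeder markers Col3a1, a collagen gene, and Twist1, a mesenchymal transcription factor gene, had 0.80 and 0.48. Whether other cells took part in either library was not tested.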

How the data were processed

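Reads per 1 kb bin had been counted by the authors and deposited as estimated counts in steps of 0.05, not scaled for depth. Per the submitters' processing notes, cutadapt, Bowtie2 2.5.4, SAMtools and deepTools were used with mm10. How duplicates or poorly mapped reads were treated is not given in the sources used here. The deposited table covers 8 of the 12 samples, and the other 4 were not analysed here. Members, gene lists and tests were chosen with earlier results of these data known.

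Counts were divided by each library's mean over 2462755 autosomal bins. The local value added 0.5 to density and to the median of 10 bins on each side. Bins with a local background under 0.5 in either library or an input above 3 times its mean were left out of the genome-wide comparison. With 1 library per genotype no p-value was computed, and intervals treat the estimated counts as Poisson counts. Gene names, starts and promoter sequences came from RefSeq tables. No genome sequence was used. Scripts were tested on simulated data and used Python 3.11.15, numpy 2.4.6, pandas 2.3.3, scipy 1.17.1 and matplotlib 3.10.9.

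Named were the Dlk1-Dio3 windows, the 15 tagged sites highest in anti-FLAG, the 10 highest and 10 lowest differences among tagged sites within the limits, the 15 regions with the largest difference each way, up to 4 highest and 2 lowest members of each gene list, autosomes more than 5% from a ratio of 1 and the 5 highest and lowest 10 Mb windows. Not every one of these is named in the text, and the limits on the second group were added after the data were seen. Alternatives tried were the pseudocount, the flanking bins, the site and call thresholds, limits on the input, the scaling of chromosomes and the definitions of empty and high bins.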

Additional observations from a re-analysis of the deposited data

How the results depend on the processing

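Directions held for the tagged sites under every alternative below, and their counts moved. All of these alternatives kept a local background. Without it, the density ratio of wild type to control from summed reads was 0.984 (0.971 to 0.997) over the 351 bins. Over the 166 bins within the limits it was 2.42 (2.36 to 2.49). With a pseudocount of 0.25 the medians were 1.62 in the wild type with a difference of 1.20, with 886 and 106 peaks in wild type and control and 918 intervals above 1 among 1058 sites. With a pseudocount of 1 the medians were 1.26 and 0.26, the difference 0.77, with 125 wild-type peaks and 147 intervals above 1 among 194 sites. Flanks of 5 bins gave 14 intervals below 1 among 270 sites, and flanks of 20 bins a control median of 0.39 over 395. The mean of the flanking bins gave a difference of 0.82, 161 wild-type peaks, and 180 intervals above 1 and 12 below among 231 sites. A site threshold of 1 gave medians of 1.26 and 0.42, a difference of 0.79, 2652 and 228 peaks, and 2836 intervals above 1 and 49 below among 3551 sites. A threshold of 2 gave 1.66 and 0.38, 1.07, 117 and 30 peaks, and 108 above and 16 below among 137. Sites with an input of 0.25 to 3 times its mean gave 1.17 and 0.21, 135 and 5 peaks, and 0 intervals below 1 among 222. The limits on background and input, added after the data were seen, gave 1.00 and 0.20, 0.81, 83 and 1 peaks, and 130 above and 0 below among 166. With H3K27ac and input under 0.5 as well, they gave 0.83 and 0.11, 0.70, 30 and 0 peaks, and 61 above and 0 below among 83.

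Bins higher and lower in the wild type numbered 27378 and 87147 with a pseudocount of 0.25, 1015 and 4241 with 1, and 198 and 4825 at a threshold of 1.5. The lower bins numbered 21187 with flanks of 5 bins and 13504 where the input held 0.25 times its mean or more. Peak bins of wild type and control numbered 10340 and 1288 with a pseudocount of 0.25, 2411 and 175 with 1, 9761 and 806 with high-input bins kept, and 21 and 39 at a threshold of 2, where the order turned. The median difference over all genes was 0.13, 0.0918 and 0.12 with pseudocounts of 0.25 and 1 and flanks of 20 bins, and 0.22 without local background, where the order of the gene groups changed.

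Chromosome means in place of medians put 11 autosomes over 5% above 1 and 3 over 5% below, as did scaling to the autosomal median, which moved chromosome 1 to 1.00. Leaving out bins near genes, with the scale unchanged, lowered the ratio on every autosome. It put 2 above and 15 below, and moved chromosomes 9, 11 and 19 to 0.95, 0.95 and 0.92. Bins with fewer than 3 reads in the wild type alone were 3.796% of bins. Among bins with input reads, 0.19% were empty in the wild type, with 0.19% in it alone and 4.9e-05% in the control. Reads in bins above 3 times the mean were 3.70% and 0.52%, and above 10 times 0.0613% and 0.159%, a ratio of 0.39. The cause of these changes was not tested. No paired analysis was possible because each genotype is 1 library, and for the same reason none could be left out. At a mean of 23.6 and 35.8 reads per bin, small differences in single bins were not detectable.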
